A study of Homo sapiens with 12 samples.

Results

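The lysyl oxidase family consists of LOX, LOXL1, LOXL2, LOXL3 and LOXL4. Its 5 genes were taken by symbol from the 26364 genes of a count table and followed across all 12 libraries of A2058 melanoma cells, a long-established human line. Of these genes 4 were among the 14297 genes that passed a filter on low counts and were tested. LOXL1 was the member that did not pass. The libraries, made from bulk RNA, fall into 4 groups of 3. Cells of the MITF overexpression group had been transduced with lentivirus from an LVX vector carrying MITF, and cells of its control with the empty LVX vector. Cells of the knockdown group had been transfected with siRNA against MITF for 48 hours, and cells of its control with a scrambled siRNA. The transduced groups share virus and puromycin selection and the siRNA groups share lipofection, so the control groups also differ from each other in delivery. All groups come from a single line. The labels describe the libraries of a group as biological replicates and as independent, without saying whether each had its own transduction or transfection. What the p-values weigh is the spread among these libraries.

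Lysyl oxidases are copper-dependent amine oxidases that are secreted into the extracellular matrix. They convert lysine side chains of collagen and elastin into reactive aldehydes, which then form the cross-links that stiffen the matrix. LOX and LOXL1 are made as proenzymes with a propeptide that procollagen proteinases such as BMP1 remove, whereas LOXL2, LOXL3 and LOXL4 carry scavenger receptor domains in place of it. MITF, a transcription factor, directs the differentiation of melanocytes, and melanoma cells with low MITF are known for an invasive state rich in matrix genes.

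MITF moved as the labels say. It had 657, 679 and 632 CPM (the count scaled to TMM-adjusted library size) with the MITF vector, against 299, 311 and 300 CPM with the empty vector. With MITF siRNA it had 343, 322 and 364 CPM, against 504, 465 and 430 CPM with scrambled siRNA. The controls were not level, so MITF stood in the order MITF vector, scrambled siRNA, MITF siRNA, empty vector.

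The MITF vector libraries stood apart in other ways too. Of 11 Y-linked genes that were tested, 11 fell with the MITF vector, whereas 0 fell and 1 rose with MITF siRNA. MALAT1, a nuclear noncoding RNA, held 1.22% to 1.27% of counts with the MITF vector and 0.480% to 0.666% with the empty vector, and 0.273% to 0.635% with MITF siRNA and 0.553% to 0.758% with scrambled siRNA. The part of these differences in the results was not tested. Total counts ran from 7427637 to 23938392 per library. All 8 melanocytic markers examined averaged over 1 CPM in every group. Together they reached 7762 to 8426 CPM with the MITF vector against 3703 to 3906 with the empty vector. With MITF siRNA they reached 5648 to 6337 CPM against 6993 to 7958 with scrambled siRNA. This sum includes MITF, and the group averages of MITF, SOX10, PMEL, MLANA and DCT went with it in both comparisons. S100B went against it, at 295 CPM against 424 with the MITF and empty vectors and 500 against 336 with MITF and scrambled siRNA. TYR and S100A1 averaged higher in both comparisons (1073 against 1055 CPM and 81.9 against 61.1 CPM with MITF and scrambled siRNA). Of 4 immune markers CD3E was at 0 in every library and PTPRC averaged at most 0.296 CPM, but the summed level, mostly LYZ, was 0.330 to 0.784 CPM with the MITF vector against 1.79 to 2.48 with the empty vector and 6.91 to 7.90 with MITF siRNA against 3.97 to 4.74 with scrambled siRNA. Its part in the results was not tested. Of 7 fibroblast markers PDGFRB and THY1 averaged at most 0.0918 CPM. The summed level of the 7, of which LUM made 13.1 to 27.9 CPM as a group mean, was 34.5 to 37.5 CPM with the MITF vector and 34.7 to 40.1 with the empty vector, and 26.5 to 32.6 with MITF siRNA and 26.2 to 27.4 with scrambled siRNA. Its members did not move together. FAP averaged 3.08 CPM with the MITF vector and 12.4 with the empty vector (log2 fold change -1.98 (SE 0.15)), whereas LUM (0.36 (SE 0.085)) and DCN (0.83 (SE 0.29)) were called higher there. With MITF siRNA FAP stood at -0.020 (SE 0.13) and was not called. Of 4 epithelial markers EPCAM and CDH1 averaged at most 0.145 CPM. The summed level of the 4 came mostly from the keratin KRT18, and in that sum all MITF vector libraries lay below all empty vector libraries. The sum was 33.3 to 35.2 CPM with MITF siRNA against 26.8 to 31.7 with scrambled siRNA. KRT18 averaged 30.1 CPM with the MITF vector and 54.6 with the empty vector. The part of these markers in the results was not tested. The 4 endothelial markers together reached at most 1.76 CPM in any library.

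LOXL3 and LOXL2 made up most of the family's RNA, and LOXL2, LOXL3 and LOXL4 each took a different course across the groups. LOXL3 was lowest with the MITF vector and highest with MITF siRNA. LOXL2 fell in both comparisons. LOXL4 rose with the MITF vector, and LOX was not called in any pair of groups. In the overexpression comparison 3 of the 4 tested members were called (adjusted p under 0.05), beside 59.4% of all tested genes. In the siRNA comparison 2 of 4 were called, beside 35.4%. Shares of so few genes near the background are not a result about the family, and the weight lies on the single members.

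**Figure D1:**
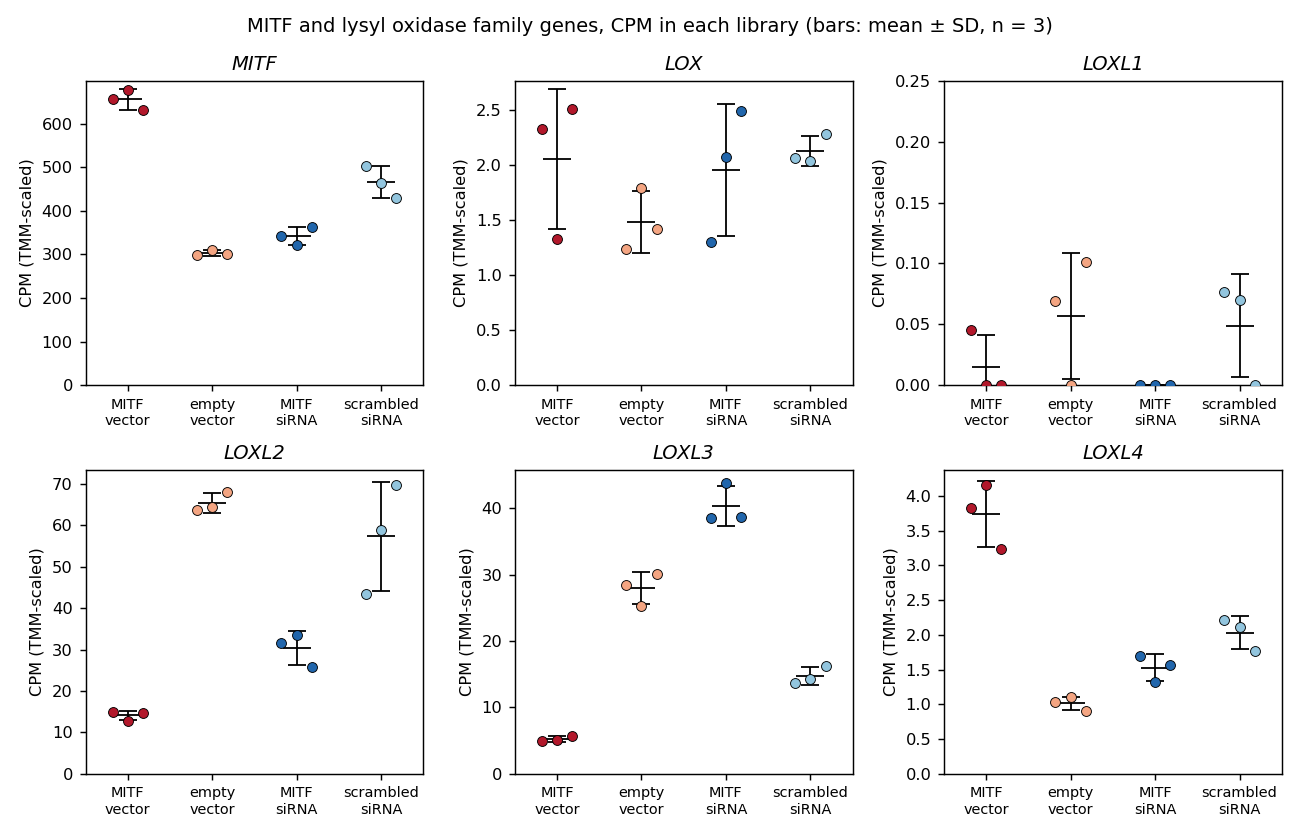
CPM (TMM-scaled, vertical axis from 0, with its own range in each panel) of MITF and the 5 lysyl oxidase genes in each of the 12 libraries, by group; bars are mean ± SD (n = 3). LOXL3 lies at 4.97 to 5.67 CPM with the MITF vector and at 38.6 to 43.9 CPM with MITF siRNA, while LOXL1 has no more than 1 count in any library.

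LOXL3 is a secreted amine oxidase of the scavenger receptor type that has been studied in melanoma. It had 4.97, 5.04 and 5.67 CPM with the MITF vector, against 28.5, 25.3 and 30.1 CPM with the empty vector. Every MITF vector library was below every empty vector library, as for 33.2% of all tested genes. LOXL3 fell 5.42-fold (log2 fold change -2.44 (SE 0.10), adjusted p = 1.11e-20). Adjusted p-values are those of edgeR's quasi-likelihood fit, adjusted over all tested genes by Benjamini and Hochberg's method. In bulk RNA, fewer cells with a transcript and less of it in each cell cannot be told apart. Ranked by log2 fold change, 2.02% of tested genes lay below it. With MITF siRNA it had 38.6, 43.9 and 38.8 CPM, against 13.7, 14.2 and 16.2 CPM with scrambled siRNA. It rose 2.74-fold in that comparison (log2 fold change 1.45 (SE 0.082), adjusted p = 6.98e-16), again with no overlap of the libraries (23.0% of tested genes were apart and higher). By absolute log2 fold change it ranked 92 of 14297. A fall with the MITF vector and a rise with MITF siRNA, each against its own control, was called for 10.0% of tested genes. The difference between the responses was itself called (log2 -3.89 (SE 0.13), adjusted p = 3.21e-23), as it was for 56.9% of tested genes.

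Between the controls, scrambled siRNA had 1.91-fold less LOXL3 than the empty vector (adjusted p = 2.70e-10), a comparison in which 38.5% of genes were called. MITF siRNA libraries lay above empty vector libraries by 1.43-fold (adjusted p = 1.09e-06), where 42.7% were called. LOXL3 therefore stood in the order MITF siRNA (40.4 ± 3.00 CPM, mean ± SD, n = 3 in this and the following groups), empty vector (28.0 ± 2.44), scrambled siRNA (14.7 ± 1.34) and MITF vector (5.23 ± 0.386), and each pair of neighbours in that order was called, the last with adjusted p = 5.58e-14 in a comparison where 50.6% of genes were called. This is the order of MITF turned round, except that MITF siRNA and the empty vector, whose MITF levels lay closest, change places.

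The sequence around the starts of LOXL3 is shown because this gene moved against MITF in both comparisons, and that of LOXL4 because it rose with MITF. For LOXL2 no window was matched. The windows run from 250 bases before to 50 bases after a start in RefSeq on GRCh38.p14 and are read 5′ to 3′ on the minus strand. Capitals mark matches to motifs searched on both strands, CACGTG and CATGTG (forms of the E-box that MITF binds), TGANTCA (AP-1) and GGAATG (TEAD). The build of the counts is hg19, so these coordinates are not those of the count table.
LOXL3, outer start, chr2:74553893-74554192: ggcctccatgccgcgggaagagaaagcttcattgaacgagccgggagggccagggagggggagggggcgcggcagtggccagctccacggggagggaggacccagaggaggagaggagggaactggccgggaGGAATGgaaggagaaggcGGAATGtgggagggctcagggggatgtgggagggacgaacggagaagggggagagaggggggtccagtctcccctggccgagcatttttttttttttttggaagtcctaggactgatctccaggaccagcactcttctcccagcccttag
LOXL3, inner start, chr2:74549477-74549776: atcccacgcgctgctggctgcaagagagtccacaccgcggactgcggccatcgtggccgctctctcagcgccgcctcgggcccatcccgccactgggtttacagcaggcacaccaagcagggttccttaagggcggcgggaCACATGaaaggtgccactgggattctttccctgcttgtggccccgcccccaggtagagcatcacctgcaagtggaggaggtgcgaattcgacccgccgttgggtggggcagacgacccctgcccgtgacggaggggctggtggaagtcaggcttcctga
LOXL4, chr10:98268145-98268444: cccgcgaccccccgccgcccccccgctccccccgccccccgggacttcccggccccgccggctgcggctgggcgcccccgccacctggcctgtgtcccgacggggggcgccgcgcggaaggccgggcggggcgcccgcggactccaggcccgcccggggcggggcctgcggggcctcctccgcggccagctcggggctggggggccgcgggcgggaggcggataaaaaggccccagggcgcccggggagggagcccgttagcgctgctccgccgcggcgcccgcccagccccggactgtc
The outer LOXL3 window held 2 matches to GGAATG, which begin 118 and 100 bases before the start, and none to the other motifs. At least 1 match to GGAATG was found in 14% and at least 2 in 1.37% of 35116 windows of the same length. The inner LOXL3 window held 1 match to CATGTG, read as CACATG and beginning 109 bases before the start, as did 11.1% of all windows with at least 1. The LOXL4 window, with 85.3% G and C, held none of these motifs, of which CACGTG occurred in 7.26% and TGANTCA in 7.71% of windows. The core ACGTG, bound by hypoxia factors, was searched as well and is not marked. It had no match in the LOXL3 and LOXL4 windows, while 21.4% of all windows held at least 1. The LOX windows, not shown, held 1, 1 and 4 matches to it and none to the other motifs. The LOXL1 window, also not shown, held no match to any motif. These matches are letters in a window and were not tested for binding.

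LOXL2 is a scavenger receptor-type lysyl oxidase known for acting on basement membrane collagen. It had 14.9, 12.8 and 14.6 CPM with the MITF vector, against 63.7, 64.4 and 68.0 CPM with the empty vector. It fell 4.63-fold (log2 fold change -2.21 (SE 0.19), adjusted p = 6.47e-06), and the libraries did not overlap (33.2% of tested genes were apart and lower). With MITF siRNA it had 31.6, 33.6 and 25.7 CPM, against 43.5, 58.8 and 69.7 CPM with scrambled siRNA. The scrambled libraries were spread widely, but all lay above the MITF siRNA libraries, as in 21.4% of tested genes. LOXL2 fell 1.91-fold there (log2 fold change -0.93 (SE 0.16), adjusted p = 0.00223), and 0.790% of tested genes had a lower value. Unlike LOXL3, it was thus lower on both sides, a pattern called for 3.96% of tested genes. The fall was larger with the MITF vector than with MITF siRNA (log2 difference of the responses -1.28 (SE 0.25), adjusted p = 0.00209).

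LOXL2 stood in the order empty vector (65.3 ± 2.32 CPM), scrambled siRNA (57.4 ± 13.2), MITF siRNA (30.3 ± 4.11) and MITF vector (14.1 ± 1.11). The controls were not told apart (scrambled siRNA minus empty vector, log2 -0.19, 95% interval -0.56 to 0.19, adjusted p = 0.422), an interval that reaches to a fall of 0.56. The MITF vector also lay below MITF siRNA (log2 fold change -1.10, adjusted p = 8.45e-04), a comparison with 62.8% of genes called.

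LOXL4, another member with scavenger receptor domains, was scarce and moved the other way. It had 3.83, 4.16 and 3.23 CPM with the MITF vector, against 1.03, 1.10 and 0.909 CPM with the empty vector. The MITF vector libraries were all higher, as in 32.0% of tested genes. LOXL4 rose 3.72-fold (log2 fold change 1.89 (SE 0.24), adjusted p = 3.57e-08), although the empty vector values rest on only 15, 8 and 9 counts. With MITF siRNA it had 1.70, 1.33 and 1.56 CPM, against 2.22, 2.11 and 1.76 CPM with scrambled siRNA. The MITF siRNA libraries all lay lower, as in 21.4% of tested genes, but the difference was not called (log2 fold change -0.41, 95% interval -0.87 to 0.053, adjusted p = 0.167). The responses to the vector and to siRNA differed (log2 2.30 (SE 0.34), adjusted p = 5.44e-07).

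The order of LOXL4 was MITF vector (3.74 ± 0.472 CPM), scrambled siRNA (2.03 ± 0.237), MITF siRNA (1.53 ± 0.189) and empty vector (1.01 ± 0.0966), which is the order of MITF itself. Of the neighbours in it, MITF vector and scrambled siRNA differed (adjusted p = 2.49e-04), whereas MITF siRNA was not called against scrambled siRNA or against the empty vector (adjusted p = 0.0909). Scrambled siRNA lay 2.00-fold above the empty vector (adjusted p = 0.00524).

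LOX, the founding enzyme of the family, was near the low end of what these libraries resolve. It had 51, 27 and 38 counts (2.32, 1.32 and 2.51 CPM) with the MITF vector, against 18, 13 and 14 counts (1.24, 1.79 and 1.41 CPM) with the empty vector. The groups overlapped, and the difference was not called (log2 fold change 0.50, 95% interval -0.094 to 1.10, adjusted p = 0.140). Without MITF overexpression replicate 2, the lowest of its group, it was 0.74 (adjusted p = 0.0311). With MITF siRNA LOX had 1.30, 2.07 and 2.49 CPM, against 2.06, 2.04 and 2.28 CPM with scrambled siRNA, and the difference was not called (log2 fold change -0.091, 95% interval -0.60 to 0.42, adjusted p = 0.812). Its direction in the siRNA comparison turned without MITF siRNA replicate 1 (0.11). None of the 6 pairs of groups was called for LOX with all libraries in the fit. Changes within these intervals, up to a log2 rise of 1.10 with the MITF vector, remain possible.

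LOXL1, known for its part in elastin upkeep, had 1, 0 and 0 counts with the MITF vector, 1, 0 and 1 with the empty vector, none with MITF siRNA, and 1, 1 and 0 with scrambled siRNA. A floor of 3 counts corresponds to 0.127 CPM in the deepest and 0.413 CPM in the shallowest library, so LOXL1 was under it throughout and no fold is given. Its antisense neighbour LOXL1-AS1 had 2 counts in all, 1 each in MITF siRNA libraries.

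**Figure D2:**
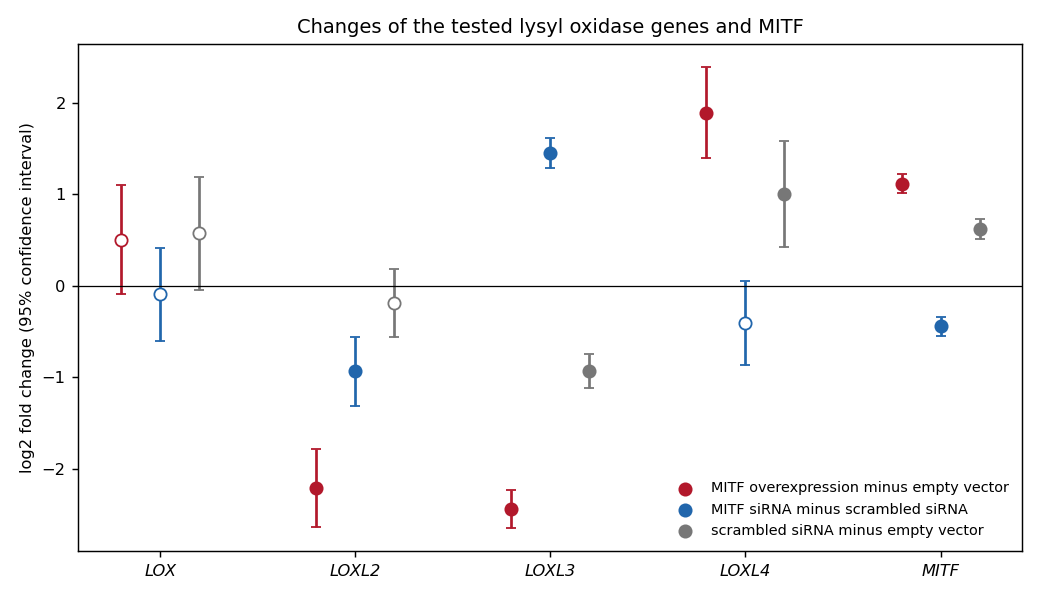
Log2 fold changes (vertical axis) of the 4 tested lysyl oxidase genes and MITF in 3 comparisons, with 95% confidence intervals; filled points were called at an adjusted p under 0.05 and open points were not. LOXL3 lies at -2.44 and 1.45 in the overexpression and siRNA comparisons, LOXL2 at -2.21 and -0.93, and LOXL4 at 1.89 and -0.41.

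Levels can be compared between members only per length, for which CPM was divided by the length of the principal GENCODE v29 transcript (5102 bases for LOX, 2351 for LOXL1, 3549 for LOXL2, 3502 for LOXL3 and 3653 for LOXL4). That annotation is not the one behind the counts, so these levels are approximate. On this scale the family summed to 6.90 ± 0.384 CPM per kilobase with the MITF vector against 27.0 ± 1.20 with the empty vector (SD, n = 3 each). It summed to 20.9 ± 1.78 with MITF siRNA against 21.4 ± 4.01 with scrambled siRNA, where the libraries overlapped. The makeup differed where the sum hardly did. LOXL3 was 55.3% ± 2.13 of the family per length with MITF siRNA against 20.0% ± 2.38 with scrambled siRNA, and LOXL2 was 40.8% ± 2.83 against 75.2% ± 3.54. With the MITF vector LOXL4 was 14.9% ± 2.61 of the family, against 1.03% ± 0.142 with the empty vector. LOX was 5.77% ± 1.54 with the MITF vector against 1.08% ± 0.235 with the empty vector, although its own level was not called as changed.

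**Figure D3:**
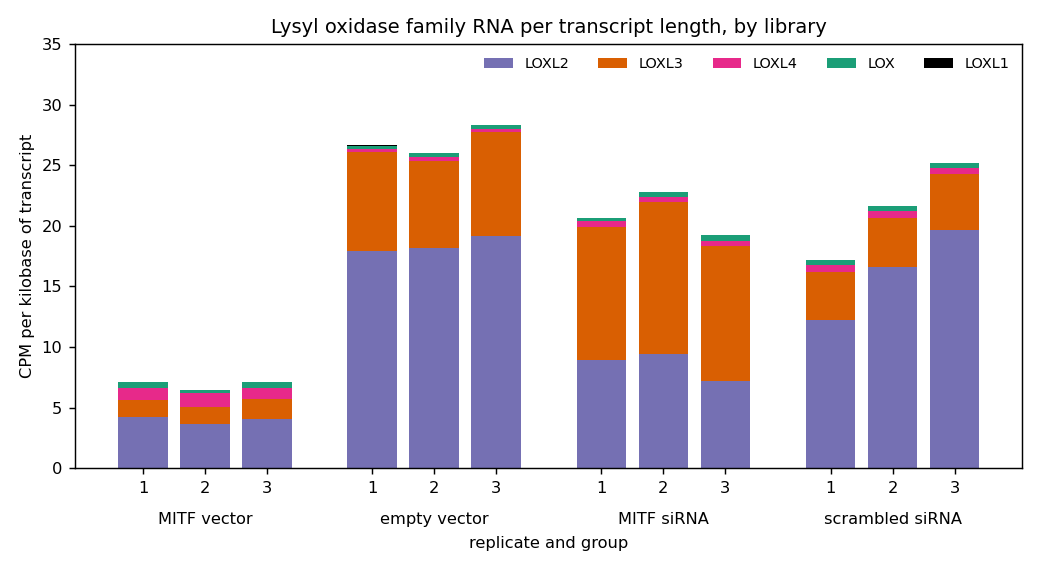
CPM per kilobase of transcript (vertical axis) of the 5 lysyl oxidase genes, stacked, in each library (replicate number and group on the horizontal axis). The stacks are lowest with the MITF vector (6.45 to 7.14), and LOXL3 is the largest share in all 3 MITF siRNA libraries.

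The ratio of LOXL3 to LOXL2 counts within a library does not depend on how libraries are scaled. It was 1.22, 1.31 and 1.51 with MITF siRNA, against 0.315, 0.242 and 0.233 with scrambled siRNA, so LOXL3 outnumbered LOXL2 in each MITF siRNA library and in none of the scrambled ones. With the MITF vector it was 0.333, 0.393 and 0.389, against 0.447, 0.393 and 0.443 with the empty vector. Those groups met at 0.393.

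Reads could be shared with genes that overlap the members in GENCODE v29, and no source used here gives the strand setting of the counting. LOXL3 overlaps HTRA2 and DOK1, on the opposite strand, over 625 and 216 exonic bases. HTRA2 (log2 fold change -0.081 with the MITF vector and 0.12 with MITF siRNA) and DOK1 (0.0045 and 0.36) were not called in either comparison. Between the controls DOK1, like LOXL3, was lower with scrambled siRNA (-0.91, adjusted p = 2.45e-04), whereas HTRA2 was not called. Against LOXL3, DOK1 was called lower with MITF siRNA than with the empty vector (-0.55). It was also called higher with the MITF vector than with scrambled siRNA (0.91). The part of shared reads in LOXL3 was not tested. LOXL2 shares 120 exonic bases with ENTPD4 on its own strand, and ENTPD4 changed by -0.33 with the MITF vector and 0.24 with MITF siRNA (adjusted p = 2.77e-07 and 1.43e-04). SRFBP1, which overlaps LOX on the opposite strand over 138 exonic bases, was not called in either comparison (0.0084 and -0.099).

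Some genes shared the course of a member closely. Likeness was measured as the root mean square difference of log2 CPM over the 12 libraries, each gene centred on its own mean, among 11996 protein-coding genes. The libraries form 4 groups, so this describes 4 levels and their spread. Nearest to LOXL3 were COL5A2, a fibrillar collagen chain (0.17), PPP1R14C, an inhibitor of protein phosphatase (0.17), and FLRT3, a membrane protein of cell adhesion (0.19). LOXL3 itself varied by 1.11 about its mean on this scale. COL5A2 fell with the MITF vector (log2 fold change -2.56 (SE 0.15)) and rose with MITF siRNA (1.60 (SE 0.13)). Because COL5A2 was picked here for its likeness to LOXL3 in these same libraries, these changes follow from the choice and are not separate support. The genes nearest to LOXL4 were PLEKHH1 (0.12), GAB2, a signalling adaptor (0.13), and CHN2 (0.13), against a variation of 0.65 in LOXL4. Nearest to LOXL2 were SH3GL2 (0.26), the serotonin receptor gene HTR2B (0.27) and the cytokine gene CLCF1 (0.27), against 0.89 in LOXL2. For LOX the nearest gene, ARL15, differed by 0.21 where LOX varied by 0.34, so its likeness is loose. Between members the distances were wide, from 0.64 for LOX and LOXL4 to 1.72 for LOXL3 and LOXL4.

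**Figure D4:**
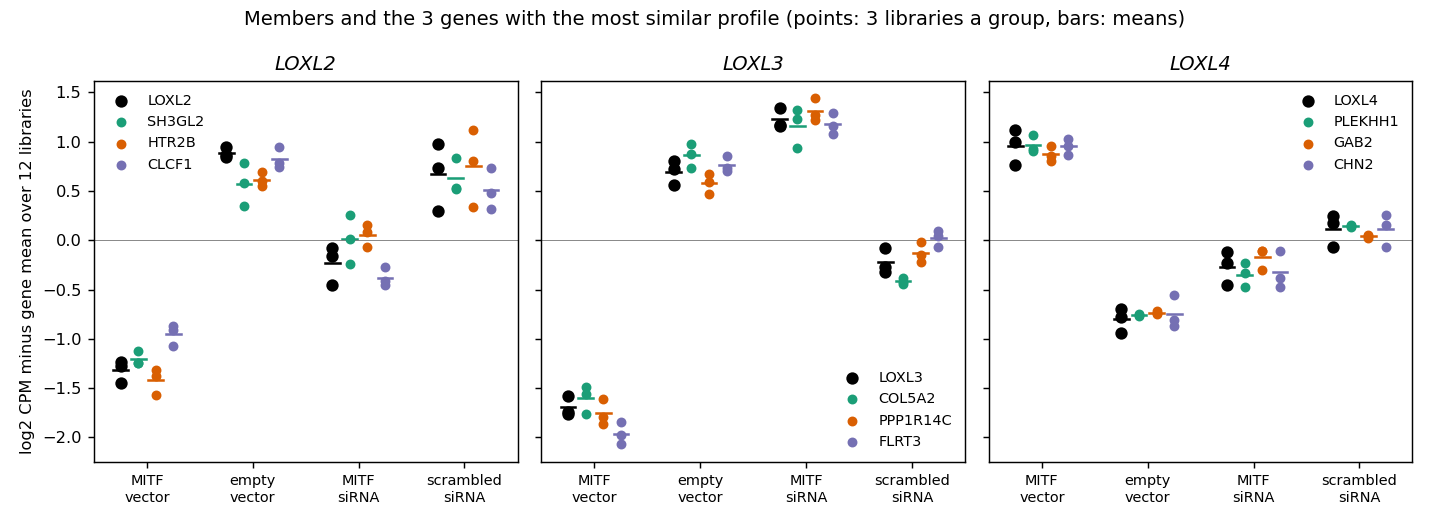
Log2 CPM minus the gene's mean over 12 libraries (vertical axis) for LOXL2, LOXL3 and LOXL4 and the 3 genes most similar to each, by group; points are libraries and bars are group means. COL5A2 differs from LOXL3 by 0.17 and PLEKHH1 from LOXL4 by 0.12 (root mean square).

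The substrates and helpers of the family were examined through lists that cover its route from the cell to the matrix. These lists were chosen with earlier results of these data known, so their counts are descriptive and not an independent check. Values given with a gene or as a median are log2 fold changes. Lists are described by counts, beside 28.6% higher and 30.8% lower of all tested genes with the MITF vector, and 18.7% higher and 16.7% lower with MITF siRNA. The median log2 fold change of all tested genes was 0.0037 and -0.0026 in these comparisons. Among the collagens that lysyl oxidases act on, 6 of 9 were tested. With the MITF vector 0 rose and 5 fell (median -1.71), or 4 of 5 without COL11A1, which passed the filter only through the empty vector group. Among them were COL4A1, a basement membrane chain (-1.16 (SE 0.048), adjusted p = 1.04e-20), and COL5A1 (-3.23 (SE 0.57), adjusted p = 9.75e-06, from 2, 1 and 2 counts against 11, 5 and 12). With MITF siRNA 2 rose and 0 fell (median 0.27), namely COL5A2 and COL4A1 (0.47 (SE 0.047)). COL1A1, the chief fibrillar substrate in other tissues, averaged 0.932 CPM with the MITF vector and 0.968 with the empty vector and was not called.

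The enzymes that hydroxylate and fold collagen before lysyl oxidases reach it mostly took the directions of LOXL3. Of 13, all tested, 0 rose and 11 fell with the MITF vector (median -0.57), and 11 rose and 0 fell with MITF siRNA (median 0.56). Without P4HA3, which passed the filter only through the empty vector group, 10 of 12 fell with the MITF vector. SERPINH1, the collagen chaperone HSP47, changed by -0.96 (SE 0.046) with the MITF vector and 0.81 (SE 0.045) with MITF siRNA. P4HB, a subunit of prolyl hydroxylase, changed by -0.57 (SE 0.047) and 0.62 (SE 0.047), and PPIB, a prolyl isomerase, by -0.62 (SE 0.051) and 0.56 (SE 0.049). PLOD1, which hydroxylates the lysines that take part in cross-links, fell with the MITF vector (-0.86 (SE 0.048), adjusted p = 2.75e-17). P3H1 rose with MITF siRNA (0.61 (SE 0.052), adjusted p = 2.48e-11). CRTAP was called in neither comparison.

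Genes of propeptide removal, which concerns LOX and LOXL1, were mixed. Of 9, 6 were tested. With the MITF vector 1 rose and 3 fell (median -0.29), and with MITF siRNA 2 rose and 1 fell (median 0.13). BMP1, the main procollagen C-proteinase, fell with the MITF vector (-0.36 (SE 0.054), adjusted p = 5.79e-07). PCOLCE, its enhancer, rose (0.76 (SE 0.18), adjusted p = 4.98e-04). BMP1 stood at 0.06 and was not called with MITF siRNA.

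Lysyl oxidases need copper as a cofactor. Of 15 copper-handling genes 14 were tested, and 3 rose and 6 fell with the MITF vector (median -0.13), while 1 rose and 6 fell with MITF siRNA (median -0.21). Without STEAP2, which passed the filter on low counts only through the scrambled siRNA group, 5 of 13 fell with MITF siRNA. ATP7A, the pump that loads copper onto secreted enzymes including lysyl oxidases and tyrosinase, rose with the MITF vector (1.34 (SE 0.054), adjusted p = 4.95e-21) and fell with MITF siRNA (-0.59 (SE 0.054), adjusted p = 1.53e-10). SLC31A1, the copper importer CTR1, likewise rose (1.04 (SE 0.043)) and fell (-0.44 (SE 0.042)). The metallothionein gene MT2A went the other way (-1.17 (SE 0.064) and 0.44 (SE 0.068)). ATOX1, the chaperone that hands copper to ATP7A, fell with the MITF vector (-0.56 (SE 0.047), adjusted p = 2.47e-12) and with MITF siRNA (-0.23 (SE 0.046), adjusted p = 1.74e-04).

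In the elastic fibre list, 15 of 18 genes were tested. With the MITF vector 1 rose and 7 fell (median -0.25), with LTBP2 at -1.49 (SE 0.14), FBN2 at -0.76 (SE 0.059) and FN1, fibronectin, at -0.47 (SE 0.045) against LTBP4 at 1.20 (SE 0.077). With MITF siRNA 5 rose and 1 fell (median 0.15), with LTBP1 at 0.43 (SE 0.055) and LTBP4 at -0.39 (SE 0.079). POSTN, which is known to bring BMP1 to its substrates, had 20, 27 and 24 counts with MITF siRNA against 1, 1 and 0 with scrambled siRNA. It passed the filter only through the MITF siRNA group, so its difference is not a test, and without it 4 of 14 genes of the list rose and 1 fell. Of the other cross-linking enzymes and amine oxidases 4 of 8 were tested. TGM2, a transglutaminase, fell with the MITF vector (-2.12 (SE 0.092), adjusted p = 2.91e-20) and rose with MITF siRNA (0.57 (SE 0.10), adjusted p = 3.41e-05). Its controls lay far apart, at 39.4 CPM with the empty vector and 9.21 with scrambled siRNA. The MITF vector (9.12 CPM) was thus near scrambled siRNA, and MITF siRNA (13.8 CPM) stayed below the empty vector. Of these 4 genes 0 rose and 3 fell with the MITF vector (median -0.45), and 1 rose and 1 fell with MITF siRNA (median 0.13). Without the filter on low counts 4 of the list were called in the siRNA comparison.

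Pathways known to act on lysyl oxidase genes were taken as 3 lists. The lists hold target genes and markers as well as regulators. Of 12 hypoxia genes, all tested, 2 rose and 3 fell with the MITF vector (median -0.15), with HIF1A at -0.91 (SE 0.045). HIF1A averaged 659 CPM with MITF siRNA and 656 with scrambled siRNA. With MITF siRNA 2 rose and 1 fell (median 0.047), with BNIP3 at 0.62 (SE 0.18) among those that rose. Without CA9, which passed the filter only through the MITF siRNA group, 1 rose and 1 fell. These counts were loose. In the overexpression comparison 3 genes were called without MITF overexpression replicate 2 or empty vector replicate 1, and in the siRNA comparison 1 was called without scrambled siRNA replicate 2 and 5 with total-count scaling. Of 12 TGF-beta genes 11 were tested, and 6 rose and 4 fell with the MITF vector (median 0.16), while 6 rose and 0 fell with MITF siRNA (median 0.16). The receptor gene TGFBR2 changed by -1.26 (SE 0.065) and 0.63 (SE 0.059), whereas the receptor gene TGFBR1 rose in both comparisons (0.59 (SE 0.050) and 0.35 (SE 0.049)). The ligand gene TGFB2 had 131, 129 and 74 counts with the MITF vector against 9, 2 and 2 with the empty vector. It passed the filter only through the MITF vector group, and without it 5 of 10 rose and 4 fell there. In the list of epithelial-mesenchymal transition genes 7 of 9 were tested, with 2 up and 4 down for the MITF vector (median -0.27) and 3 up and 1 down for MITF siRNA (median 0.031). CDH2 (N-cadherin) changed by -1.66 (SE 0.054) and 0.47 (SE 0.052), SNAI2 by 0.44 (SE 0.056) and -0.41 (SE 0.054). SNAI1, a repressor whose protein is reported to bind LOXL2 and LOXL3, rose in both comparisons, by 0.57 (SE 0.21, adjusted p = 0.0220) with the MITF vector and by 0.90 (SE 0.19, adjusted p = 3.54e-04) with MITF siRNA. It was scarce, and its libraries overlapped in the overexpression comparison (2.87 to 4.36 CPM with the MITF vector against 1.99 to 3.16 with the empty vector).

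**Figure D5:**
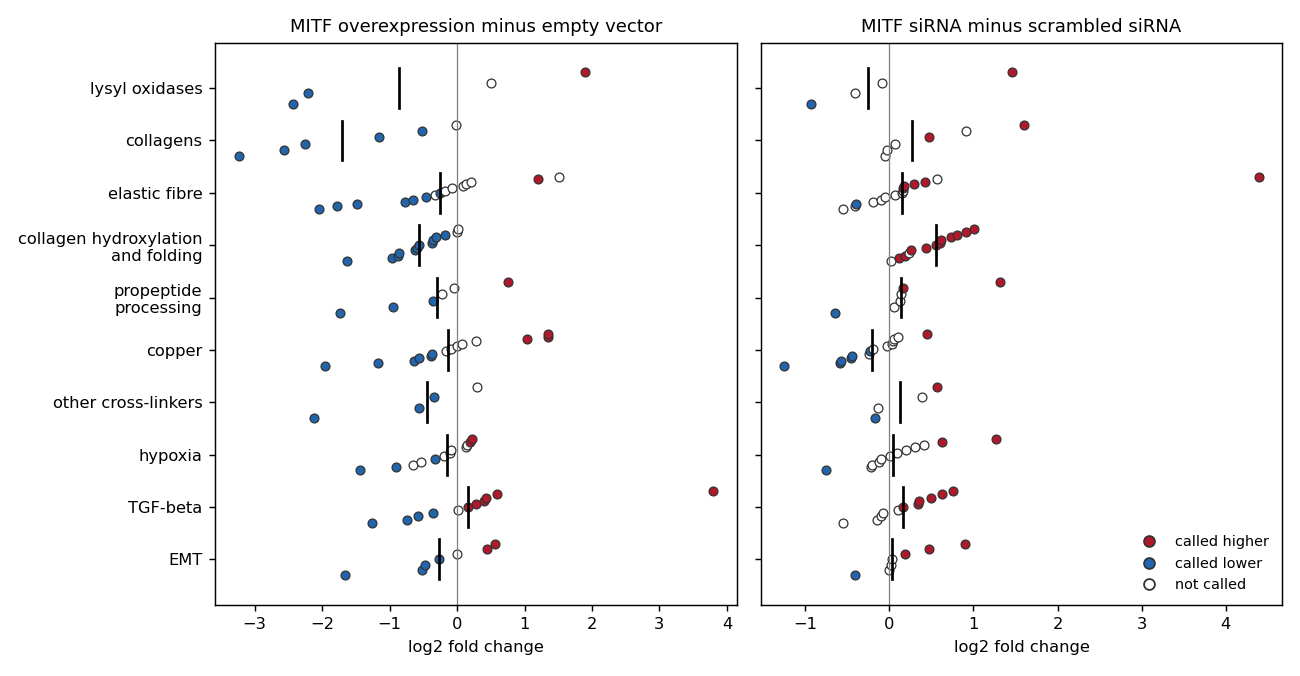
Log2 fold changes (horizontal axis, with its own range in each panel) of each tested gene of 10 lists in the overexpression (left) and siRNA (right) comparisons; red points were called higher, blue points lower and open points were not called, and black bars are list medians. Of 13 genes of collagen hydroxylation and folding, 11 lie on the lower side as called on the left and 11 on the higher side as called on the right.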

How the data were processed

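Per the labels' protocols, libraries came from a stranded total RNA kit and reads were paired and 76 bases long. The genome build hg19 and the tools featureCounts 1.6.3, STAR 2.6.0, SAMtools 1.10 and bcl2fastq 2.18.0 are named in the submitters' processing notes; the sources used here give no settings for them. The values deposited by the authors are raw whole-number counts per gene symbol and library, with 0 rows without a gene and 0 unused columns. A second file of read file names was not used.

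Genes were kept by edgeR's filterByExpr (minimum count 10), TMM factors scaled the libraries, and 1 robust quasi-likelihood fit of 4 group means held all 12 (edgeR 4.0.16, limma 3.58.1, R 4.3.3). All 6 pairs of groups and the difference of the main responses were tested, with Benjamini-Hochberg adjustment over 14297 genes and calls under 0.05. The SE is the log2 fold change divided by the square root of F, and intervals are 95%. CPM values use TMM-scaled totals. Log2 CPM profiles use a prior count of 2. Floors of 3 counts cover counting error only.

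The members and gene lists were chosen with earlier results of these data known, so no p-value is adjusted over a list alone. Named list genes are up to 4 called per list and comparison by adjusted p, or the 2 most abundant, of which the text gives a part. COL5A2 was named both by this rule and for its likeness to LOXL3. CRTAP, COL1A1, BMP1 with MITF siRNA and the filter notes on COL11A1, P4HA3 and STEAP2 fall outside the rule. They were added for their roles after their values were seen. ATOX1 with MITF siRNA and SNAI1 with the MITF vector also fall outside it. The rule named these genes in the other comparison only. Alternatives were other scalings, DESeq2 1.42.0, no filter, only the groups compared, a replicate block and leaving out each library. Same-numbered libraries deviated from their group means with correlations of -0.043 to 0.052 in the main comparisons, so no shared shift by number was seen. Whether same-numbered libraries were handled together cannot be told from this. The fit was tested on simulated counts. Of the 5 members, promoter windows were matched in RefSeq for 4, all but LOXL2.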

Additional observations from a re-analysis of the deposited data

How the results depend on the processing

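LOXL2, LOXL3 and LOXL4 kept their direction and their side of the threshold in all 7 tests under every alternative run. These were DESeq2 size factors, upper quartile or total-count scaling in edgeR, the DESeq2 Wald test, no filter beyond 1 count, only the libraries of the groups compared, the replicate block and leaving out each library. LOXL3 ranged from -2.50 to -2.38 with the MITF vector and from 1.38 to 1.52 with MITF siRNA. LOXL2 ranged from -1.09 to -0.78 in the siRNA comparison. With the replicate block LOXL3 was at -2.44 and 1.45, LOXL2 at -2.21 and -0.93, and LOXL4 at 1.89 and -0.40 in the main comparisons, and the block changed no call of a member. LOX depended on single libraries. With 1 library left out its log2 fold change ran from 0.35 to 0.74 for the MITF vector against the empty vector, where it was called without MITF overexpression replicate 2. It ran from -0.33 to 0.11 for MITF siRNA against scrambled siRNA, from -0.21 to 0.17 for the MITF vector against scrambled siRNA and from -0.18 to 0.28 for the MITF vector against MITF siRNA. The number of all genes called stayed within 1.5 times its main value under every alternative. Scaling moved the median of all genes by less than 0.1 on the log2 scale, and among the called genes of the lists 0 changed sign under another scaling, while LTBP3, MT1X, TWIST1, ZEB1 and KRT8 in the overexpression comparison and FBN2, PLOD3 and SKIL in the siRNA comparison lost their call under upper quartile or total-count scaling. With 8 to 15 counts of LOXL4 in the empty vector libraries and 13 to 18 of LOX, depth limits both.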
